A study of Mus musculus with 26 samples.

Results

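The genes described here encode lectin-like and paired immune receptors. They are all the genes on the arrays whose symbol starts with Clec, Klra, Klrb, Klrc, Klrd, Klre, Klrg, Klrk, Pira, Pirb or Lilr, each read through 1 probe, the one with the highest mean signal over all arrays. Of 71 RefSeq symbols with these beginnings, 57 had a probe, and these 57 are set against 32481 genes in all (18378 named genes and 14103 probes with no RefSeq name, each counted by itself). The others, Clec7a (Dectin-1), Pira1 and Lilr4b among them, were not analysed here. On chromosome 6 lie 44 of the 57 members and on chromosome 7 lie 5.

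The arrays measured EML cells, an erythroid, myeloid and lymphoid mouse progenitor line that depends on stem cell factor, grown with horse serum and medium conditioned with that factor. All 8 groups are sorted or treated fractions of EML cells. EryCP, CR Sca1lo and Sca1hi cells (3 arrays each) formed the first set of arrays. Ediff cells, which are CD34-negative and cKit-negative cells obtained by erythropoietin (Epo)-driven differentiation of the EryCP fraction, and a repeat of EryCP (3 arrays each) formed the second. CD34- CD103- Epo cells (3 arrays), CD34- CD103- cells (4 arrays) and CD34+ CD103- cells (4 arrays) formed the third set, in which Epo is given by the label alone. Sample titles start with EMLe2 in the third set and with EML in the others, and they do not explain this difference. Each set was scanned apart from the others, so groups were compared within a set only. The samples were triplicates or quadruplicates with no statement that they came from separate cultures, so the p-values measure the spread between these samples, which may be technical.

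C-type lectins are proteins with a carbohydrate-recognition fold. On myeloid cells many of them bind sugars of microbes or damaged cells, and some of them signal through adaptors that carry an activating motif (ITAM), such as those encoded by Tyrobp and Fcer1g. The Ly49 (Klra), NKR-P1 (Klrb) and CD94/NKG2 (Klrc, Klrd, Klrk) receptors share the fold and are best known from natural killer cells, where inhibitory members carry ITIM motifs that recruit phosphatases and many bind class I molecules. PIR and LILR receptors are immunoglobulin-like instead, and come as activating and inhibitory relatives encoded side by side.

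Pirb, Pira2 and Lilra6 lie near each other on chromosome 7 and were all called, in the same direction, in 5 of the 6 comparisons, and Clec4d and Clec4e are neighbours on chromosome 6 that both fell in Ediff cells, so their promoters are shown. Each run covers 250 bases before to 50 after the gene's start, from RefSeq on GRCm38.p6, which is not the mm8 build named in the array headers, and capitals mark a PU.1-type motif, GAGGAAG on either strand.
Pirb promoter, chr7:3720333-3720632, minus strand: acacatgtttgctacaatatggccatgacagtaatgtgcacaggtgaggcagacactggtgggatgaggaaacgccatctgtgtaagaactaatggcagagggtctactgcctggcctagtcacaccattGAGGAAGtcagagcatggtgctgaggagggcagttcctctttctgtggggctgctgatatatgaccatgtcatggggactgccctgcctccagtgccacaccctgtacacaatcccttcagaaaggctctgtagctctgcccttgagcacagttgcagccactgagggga
Pira2 promoter, chr7:3845002-3845301, minus strand: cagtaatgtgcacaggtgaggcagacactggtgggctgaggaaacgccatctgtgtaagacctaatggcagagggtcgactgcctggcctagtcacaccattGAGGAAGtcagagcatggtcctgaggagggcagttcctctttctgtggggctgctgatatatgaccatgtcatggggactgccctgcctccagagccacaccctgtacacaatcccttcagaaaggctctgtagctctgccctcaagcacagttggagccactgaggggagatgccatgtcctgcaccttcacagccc
Lilra6 promoter, chr7:3915452-3915751, minus strand: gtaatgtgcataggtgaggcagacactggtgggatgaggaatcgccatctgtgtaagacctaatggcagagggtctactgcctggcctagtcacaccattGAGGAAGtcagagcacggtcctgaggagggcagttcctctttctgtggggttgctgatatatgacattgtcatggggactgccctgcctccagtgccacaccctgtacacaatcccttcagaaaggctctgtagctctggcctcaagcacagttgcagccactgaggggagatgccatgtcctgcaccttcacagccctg
Clec4d promoter, chr6:123261857-123262156, plus strand: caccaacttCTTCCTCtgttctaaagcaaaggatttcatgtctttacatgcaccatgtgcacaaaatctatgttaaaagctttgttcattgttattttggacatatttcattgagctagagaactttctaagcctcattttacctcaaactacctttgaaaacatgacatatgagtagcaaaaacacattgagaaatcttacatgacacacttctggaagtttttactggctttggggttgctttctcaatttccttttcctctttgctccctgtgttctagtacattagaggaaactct
Clec4e promoter, chr6:123289822-123290121, minus strand: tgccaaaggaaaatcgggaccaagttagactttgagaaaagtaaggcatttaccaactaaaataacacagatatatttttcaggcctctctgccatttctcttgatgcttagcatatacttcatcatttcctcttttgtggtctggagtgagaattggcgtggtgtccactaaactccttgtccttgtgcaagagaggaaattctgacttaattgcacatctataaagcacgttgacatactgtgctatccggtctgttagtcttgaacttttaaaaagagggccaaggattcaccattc
The Pira2 and Lilra6 windows were 95.0% identical over their alignment, against 80.5% for Pirb and Pira2, 78.5% for Pirb and Lilra6, and 49.2% for Clec4d and Clec4e. The PU.1-type motif stood once in each of the windows of Pirb, Pira2, Lilra6 and Clec4d, and a GATA motif, AGATAA on either strand, stood in none of the 5 printed, so the motifs did not overlap there. Promoter entries existed for 48 of the 57 members (55 windows), of which 14 held the PU.1-type motif (25.5%, against 13.6% of 32851 windows of the same length) and 4 the GATA motif (7.27%, against 11.2%). These matches describe letters only. Transcripts as alike as those of the PIR and Ly49 families can share a probe's signal, and how far a probe of one reads another was not tested.

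Levels below are log2 signals relative to the 75th percentile of the same array, so a level of 0 is the 75th percentile itself, and a difference of 1 is a 2-fold difference. A probe's level is compared between samples and not with another probe's. The arrays had between 76.0% and 93.8% of probes well above background by the scanner software's own call, and no saturated spots. Detection of the members was as follows. On every array of the group, 37 of the 57 members (64.9%) were well above background in EryCP, 42 (73.7%) in CR Sca1lo and 39 (68.4%) in Sca1hi, against 78.9%, 79.7% and 77.7% of all genes. Ediff had 33 (57.9%) and EryCP repeat 31 (54.4%), against 72.9% and 73.4% of all genes. CD34- CD103- Epo had 37 (64.9%), CD34- CD103- 38 (66.7%) and CD34+ CD103- 39 (68.4%), against 82.0%, 81.5% and 82.7%. All 26 arrays detected 28 members, another 28 were detected on some arrays, and Klrk1, which encodes the activating receptor NKG2D, was detected on none of them. Klrc1, an NKG2 chain, and Clec1a, Clec4a1, Clec4a3 and Klra10 were detected on 4 or fewer arrays each. In the first set the dim members moved with the slide. On the slide that held EryCP array 2, CR Sca1lo array 3 and Sca1hi array 3, 91.3% to 93.8% of probes were well above background, against 80.2% to 87.0% on the other slides of that set. Each of these 3 slides held 1 array of each fraction.

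A member was tested in a set if it was well above background on every array of at least 1 group there, and called at an adjusted p below 0.05 (limma, Benjamini-Hochberg over all genes tested). Of the 57 members, 47 were tested in at least 1 comparison and 26 were called in at least 1. EryCP against CR Sca1lo called 11 of 43 members (6 higher, 5 lower), 25.6% against 5.01% of all genes (2.74% higher, 2.26% lower). EryCP against Sca1hi called 10 of 43 (1 higher, 9 lower), 23.3% against 6.45% of all genes (3.16% higher, 3.29% lower). CR Sca1lo against Sca1hi called 8 of 43, all lower, 18.6% against 3.63% of all genes (1.23% higher, 2.4% lower). Ediff against EryCP repeat called 18 of 36 (8 higher, 10 lower), 50% against 56.6% of all genes (39.6% higher, 17% lower), so the share of members called was near that of all genes. CD34- CD103- Epo against CD34- CD103- called 9 of 39 (1 higher, 8 lower), 23.1% against 2.53% of all genes (0.643% higher, 1.89% lower). CD34- CD103- against CD34+ CD103- called 13 of 39 (7 higher, 6 lower), 33.3% against 12.4% of all genes (5.65% higher, 6.76% lower). The median difference over the tested members was -0.10, -0.22, -0.14, 0.37, -0.001 and -0.11 in that order of comparisons, and over all genes tested -0.07, -0.03, 0.03, 0.45, 0.08 and -0.06. With the slide as a block, CR Sca1lo against Sca1hi called 16 members (37.2% of those tested) in place of 8, while the share of all genes called was 17.9% in place of 3.63%. With normexp background correction of the median signal, the counts in that order fell to 1, 2, 0, 2, 5 and 11.

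**Figure D1:**
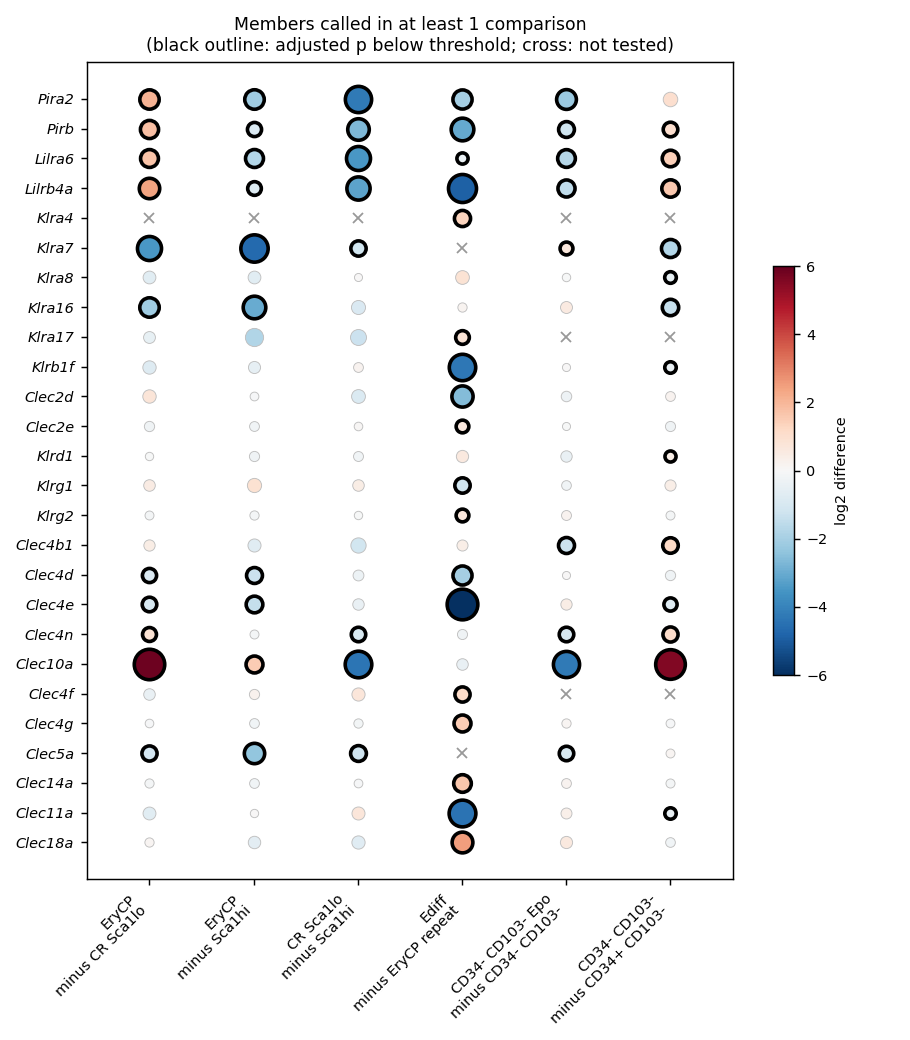
Log2 differences of the 26 members called in at least 1 comparison (rows, grouped by family) in the 6 comparisons (columns). Colour and size show the log2 difference, a black outline a call, and a cross a member not tested; Pirb, Lilra6 and Lilrb4a were called in all 6 columns, and Pira2, Clec10a and Klra7 in 5.

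Of the 5 paired immunoglobulin-like receptor genes, Pirb, Pira2, Lilra6 and Lilrb4a were lowest in CR Sca1lo within the first set, intermediate in EryCP and highest in Sca1hi, with all 3 pairs called for each of them. PIR-B, encoded by Pirb, is an inhibitory receptor for class I molecules. Pirb levels were 4.22, 3.93 and 4.58 in EryCP, 2.41, 2.66 and 2.26 in CR Sca1lo, and 5.29, 5.25 and 4.94 in Sca1hi. No fraction overlapped another. Pirb was 3.48-fold higher in EryCP than in CR Sca1lo (log2 1.80 ± 0.21 SE, adjusted p = 0.0017) and 6.57-fold lower in CR Sca1lo than in Sca1hi (log2 -2.72 ± 0.21, adjusted p = 0.00040). EryCP was below Sca1hi by less (log2 -0.92 ± 0.21, adjusted p = 0.038), a call lost when any of 5 of the 6 arrays was left out (all but EryCP array 3; adjusted p 0.055 to 0.166).

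Lilrb4a encodes gp49B, an inhibitory receptor of mast cells and other myeloid cells. Its levels were 1.09, 1.12 and 1.45 in EryCP, -1.09, -1.33 and -1.12 in CR Sca1lo, and 1.99, 2.18 and 1.97 in Sca1hi, again without overlap. Lilrb4a was 5.28-fold higher in EryCP than in CR Sca1lo (adjusted p = 0.00011) and 9.38-fold lower in CR Sca1lo than in Sca1hi (adjusted p = 0.00010). For Lilra6, whose human counterpart is an activating receptor, the levels were 0.91, 0.68 and 1.08 in EryCP, -0.68, -0.79 and -1.06 in CR Sca1lo, and 2.48, 2.87 and 2.56 in Sca1hi. Lilra6 was 3.32-fold higher in EryCP than in CR Sca1lo (adjusted p = 0.0011) and 11.2-fold lower in CR Sca1lo than in Sca1hi (adjusted p = 0.00011). Between EryCP and Sca1hi, Lilrb4a differed by -0.83 (adjusted p = 0.019) and Lilra6 by -1.75 (adjusted p = 0.00085). The Lilrb4a call was lost without Sca1hi array 1 or 2 or EryCP array 1 or 2 (adjusted p 0.061 to 0.108).

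Pira2 encodes an activating receptor that signals through the Fc receptor gamma chain. Its probe was not well above background in CR Sca1lo, where the levels were -7.23, -7.34 and -6.27. In EryCP they were -5.73, -4.34 and -4.46, with array 1 not above background, and in Sca1hi -2.58, -2.84 and -2.66. Here and below, "at least" sets the mean of the group measured against, on each dim array, the lowest signal that counted as above background. Pira2 was at least 2.08-fold higher in EryCP than in CR Sca1lo (adjusted p = 0.024) and at least 9.22-fold lower in CR Sca1lo than in Sca1hi (adjusted p = 0.0012). The EryCP rise was lost without CR Sca1lo array 1 or 2 or EryCP array 2 or 3 (adjusted p 0.078 to 0.109) and turned to -0.74 with normexp, and the fall in EryCP against Sca1hi (log2 -2.15, adjusted p = 0.019) without any one Sca1hi array (adjusted p 0.061 to 0.074). Lilra5, the fifth member of the group, did not pass the test in this set (log2 -1.36, -1.09 and 0.27 in EryCP against CR Sca1lo, EryCP against Sca1hi and CR Sca1lo against Sca1hi).

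In the third set Pirb, Lilra6 and Lilrb4a were higher in CD34- CD103- cells than in both other groups. Pirb levels were 2.78, 2.82 and 3.01 in CD34- CD103- Epo, 4.09, 4.20, 4.03 and 4.18 in CD34- CD103-, and 3.19, 3.10, 3.14 and 3.05 in CD34+ CD103- cells. Lilrb4a levels were -0.11, -0.41 and -0.18 with Epo, 1.18, 1.42, 1.28 and 1.37 in CD34- CD103-, and -0.30, -0.28, -0.38 and -0.26 in CD34+ CD103- cells. Lilra6 levels were -0.49, -0.33 and -0.33 with Epo, 1.44, 1.30, 1.30 and 1.19 in CD34- CD103-, and -0.03, 0.07, -0.39 and -0.10 in CD34+ CD103- cells. For each of the 3 genes, all 4 CD34- CD103- arrays lay above all 7 others. Pirb, Lilra6 and Lilrb4a were 2.39-, 3.23- and 2.91-fold lower in CD34- CD103- Epo than in CD34- CD103- cells (adjusted p 1.4e-05, 1.5e-05 and 7.6e-06). They were 2.01-, 2.68- and 3.06-fold higher in CD34- CD103- than in CD34+ CD103- cells (adjusted p 1.1e-05, 8.8e-06 and 9.0e-07). A second Lilra6 probe differed by only -0.57 and 0.22 in these comparisons and was not called, whereas the second Pirb probe gave -1.24 and 0.90 and was called in both.

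Pira2 had levels of -4.76, -4.74 and -4.60 in CD34- CD103- Epo, -3.09, -1.85, -2.99 and -1.99 in CD34- CD103-, and -4.41, -3.86, -3.36 and -2.27 in CD34+ CD103- cells. The CD34+ CD103- arrays overlapped the CD34- CD103- arrays, and that difference did not pass the test (log2 1.00, adjusted p = 0.19). With Epo, Pira2 was 4.67-fold lower than in CD34- CD103- cells (adjusted p = 0.034), a call lost when any one array but CD34- CD103- array 1 was left out (adjusted p 0.052 to 0.124).

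Ediff cells had lower levels of the same 4 genes than EryCP repeat cells, by very different amounts. Lilrb4a levels were -5.22, -5.43 and -5.36 in Ediff and -0.28, -0.22 and -0.80 in EryCP repeat, a 30.0-fold difference (log2 -4.91 ± 0.18, adjusted p = 8.4e-06). Pirb levels were 1.00, 1.03 and 1.09 in Ediff and 4.21, 4.13 and 3.96 in EryCP repeat, 8.35-fold lower (adjusted p = 6.3e-06). Pira2 was not above background in Ediff and at least 1.56-fold lower than in EryCP repeat (adjusted p = 0.013; log2 0.49 with normexp). Lilra6 moved little, with -0.49, -0.57 and -0.38 in Ediff and 0.05, 0.04 and -0.30 in EryCP repeat (log2 -0.41, adjusted p = 0.040). That call was lost without any one array but EryCP repeat array 3 (adjusted p 0.070 to 0.134), and the second Lilra6 probe fell by 1.40. In this comparison the median of all genes was itself 0.45 above 0.

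**Figure D2:**
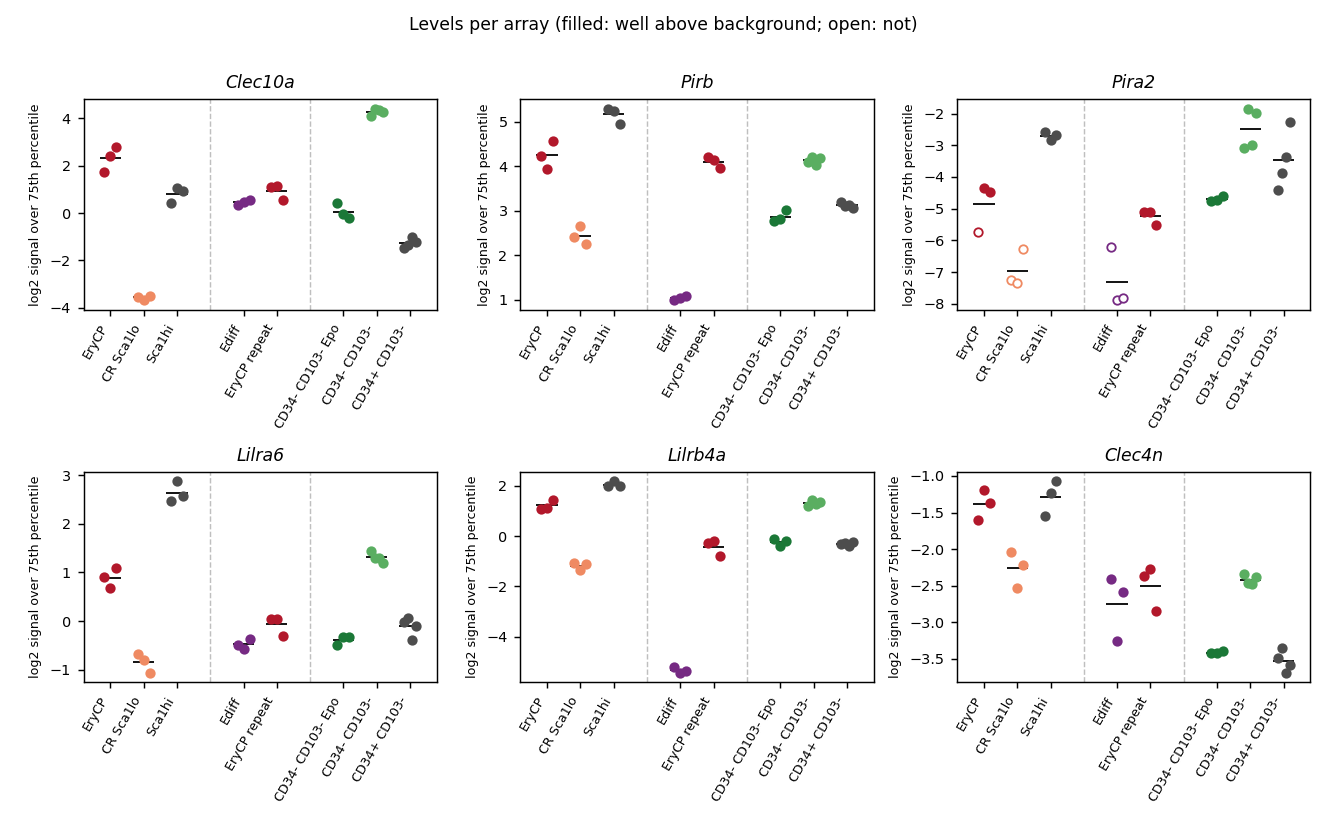
Levels of 6 members on each array (vertical axis, log2 signal relative to the array's 75th percentile) in the 8 groups, with dashed lines between array sets and a bar at each group mean. Filled points are well above background and open points are not; CR Sca1lo is the lowest group of the first set in every panel, and CD34- CD103- has the highest mean of the third.

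Clec10a encodes MGL1, a galactose-binding lectin of macrophages and dendritic cells, and had the largest single difference of any member in the first set and also in the third set. Its levels were 1.74, 2.42 and 2.78 in EryCP, -3.53, -3.67 and -3.49 in CR Sca1lo, and 0.44, 1.06 and 0.93 in Sca1hi. EryCP lay highest and CR Sca1lo far below, and the 3 fractions did not overlap. Clec10a was 58.8-fold higher in EryCP than in CR Sca1lo (log2 5.88 ± 0.28, adjusted p = 2.6e-05; within-slide values 5.27 to 6.45). EryCP exceeded Sca1hi 2.84-fold (adjusted p = 0.016), a call lost without Sca1hi array 1 or EryCP array 2 or 3 (adjusted p 0.055 to 0.066). In CR Sca1lo against Sca1hi the log2 difference was -4.37 ± 0.28 (adjusted p = 0.00022).

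In the third set Clec10a levels were 0.43, -0.05 and -0.22 in CD34- CD103- Epo, 4.09, 4.41, 4.34 and 4.25 in CD34- CD103-, and -1.46, -1.35, -1.02 and -1.22 in CD34+ CD103- cells. Again no group overlapped another. Clec10a was 18.6-fold lower with Epo than in CD34- CD103- cells (log2 -4.22 ± 0.16, adjusted p = 3.1e-07) and 46.4-fold higher in CD34- CD103- than in CD34+ CD103- cells (log2 5.54 ± 0.15, adjusted p = 5.5e-09). Ediff cells were different: their Clec10a levels of 0.34, 0.48 and 0.57 lay next to the 1.1, 1.16 and 0.54 of EryCP repeat, and the difference of -0.47 did not pass the test (adjusted p = 0.074). It did pass with spike-in scaling.

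Clec4n and Clec4b1 followed part of this pattern. Clec4n encodes Dectin-2, a receptor for fungal mannans. Clec4n levels were -1.60, -1.19 and -1.38 in EryCP, -2.04, -2.53 and -2.21 in CR Sca1lo, and -1.54, -1.23 and -1.07 in Sca1hi, lowest in CR Sca1lo. The differences of 0.88 (EryCP against CR Sca1lo, adjusted p = 0.047) and -0.98 (CR Sca1lo against Sca1hi, adjusted p = 0.037) were each lost when any one of the 6 arrays was left out (adjusted p 0.085 to 0.196 and 0.060 to 0.169). In the third set Clec4n levels were -3.42, -3.42 and -3.40 with Epo, -2.34, -2.47, -2.48 and -2.38 in CD34- CD103-, and -3.49, -3.35, -3.69 and -3.58 in CD34+ CD103- cells. Clec4n was 2.00-fold lower with Epo (adjusted p = 0.00013) and 2.16-fold higher in CD34- CD103- than in CD34+ CD103- cells (adjusted p = 9.0e-06). Clec4b1, a further gene of the Dectin-2 cluster, was 2.46-fold lower with Epo (adjusted p = 0.0032) and 2.29-fold higher in CD34- CD103- than in CD34+ CD103- cells (adjusted p = 0.00089). A second, dimmer probe of Clec4a2, next to Clec4b1, moved likewise (log2 -2.48 with Epo and 2.25 in CD34- CD103- against CD34+ CD103- cells), while the brighter one that stands for the gene gave -0.30 and 0.38 and was not called.

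Of 8 Ly49 genes tested in the first set, Klra7 and Klra16 were called, and both were lowest in EryCP. Klra7 encodes Ly49G, an inhibitory receptor of natural killer cells, and its levels were -4.48, -4.44 and -4.26 in EryCP, -0.83, -0.83 and -1.01 in CR Sca1lo, and 0.33, 0.35 and 0.09 in Sca1hi. The 3 fractions stood in steps, EryCP lowest, with no overlap. Klra7 was 11.3-fold lower in EryCP than in CR Sca1lo (log2 -3.50 ± 0.15, adjusted p = 1.8e-05) and 25.1-fold lower in EryCP than in Sca1hi (adjusted p = 3.8e-06). CR Sca1lo was 2.21-fold below Sca1hi (adjusted p = 0.0044). Klra16 levels were -2.36, -1.80 and -2.87 in EryCP, -0.25, -0.22 and -0.17 in CR Sca1lo, and 0.80, 0.66 and 0.62 in Sca1hi. Klra16 was 4.38-fold lower in EryCP than in CR Sca1lo (adjusted p = 0.0019) and 8.20-fold lower in EryCP than in Sca1hi (adjusted p = 0.00023), while CR Sca1lo against Sca1hi did not pass the test (log2 -0.90, adjusted p = 0.11). A second Klra16 probe gave log2 differences of -4.21 and -5.32 for EryCP in the same comparisons.

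In CD34- CD103- against CD34+ CD103- cells, 3 of 7 tested Ly49 genes were lower and none higher, against 6.76% of all genes lower and 5.65% higher. Klra7 levels were -3.49, -3.74 and -3.46 with Epo, -4.01, -4.16, -4.49 and -4.31 in CD34- CD103-, and -2.35, -2.48, -2.51 and -2.53 in CD34+ CD103- cells, 3 groups without overlap. Klra7 was 3.42-fold lower in CD34- CD103- than in CD34+ CD103- cells (adjusted p = 2.3e-06), and 1.60-fold higher with Epo than without (adjusted p = 0.014). The rise with Epo was lost without CD34- CD103- Epo array 1 or 3 (adjusted p 0.073 and 0.087). Klra16 was 2.61-fold lower in CD34- CD103- than in CD34+ CD103- cells (adjusted p = 1.8e-05) and differed by 0.53 with Epo, just short of the threshold (adjusted p = 0.052). Klra8, which encodes Ly49H, an activating receptor for a mouse cytomegalovirus protein, was lower by -0.47 on the log2 scale in CD34- CD103- cells (adjusted p = 0.038), and this call was lost when any of 7 of the 8 arrays was left out (all but CD34+ CD103- array 2; adjusted p 0.050 to 0.099). In Ediff cells Klra7 was detected on none of 3 arrays and in EryCP repeat on 2 of 3, so it was not tested there. Klra4 and Klra17 were called in the second set alone, and the other 6 of 11 Ly49 genes had no call in the 6 comparisons.

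Clec4e and Clec4d encode Mincle and MCL, myeloid lectins that form a heterodimer and bind mycobacterial cord factor. Clec4e levels were 4.06, 3.82 and 4.10 in EryCP, 5.11, 5.11 and 4.76 in CR Sca1lo, and 5.37, 5.57 and 5.40 in Sca1hi. The Clec4d levels were 1.06, 0.62 and 0.94 in EryCP, 1.80, 1.84 and 1.73 in CR Sca1lo, and 2.30, 2.10 and 2.04 in Sca1hi. EryCP was the lowest fraction for both genes without overlap. EryCP was below Sca1hi 2.74-fold for Clec4e (adjusted p = 0.0012) and 2.43-fold for Clec4d (adjusted p = 0.0022). Against CR Sca1lo it was below 2.00-fold for Clec4e (adjusted p = 0.0097) and 1.90-fold for Clec4d (adjusted p = 0.014), and both of these calls were lost without CR Sca1lo array 1 or 2 (adjusted p 0.057 and 0.059 for Clec4e, 0.070 and 0.077 for Clec4d). Without CR Sca1lo array 1 the whole count of members called in EryCP against CR Sca1lo was 6, and without array 2 it was 7, in place of 11. Without Sca1hi array 1 the count in EryCP against Sca1hi was 6 in place of 10.

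The largest difference of a member in Ediff cells was that of Clec4e. Clec4e levels were -2.03, -2.25 and -2.10 in Ediff and 3.92, 3.85 and 3.78 in EryCP repeat, 62.8-fold lower (log2 -5.97 ± 0.10, adjusted p = 1.4e-06). Clec4d levels were -0.15, -0.01 and -0.36 in Ediff and 1.76, 1.83 and 1.98 in EryCP repeat, 4.08-fold lower (adjusted p = 6.7e-05). Neither gene overlapped between the groups. The third set showed less: Clec4e levels were 4.71, 4.90 and 4.85 in CD34- CD103- Epo, 4.33, 4.41, 4.41 and 4.44 in CD34- CD103-, and 5.12, 5.14, 4.96 and 5.34 in CD34+ CD103- cells. Clec4e was 1.67-fold lower in CD34- CD103- than in CD34+ CD103- cells (adjusted p = 0.00029). Clec5a encodes MDL-1, which signals through the adaptors DAP12 and DAP10, and had levels of -3.40, -3.25 and -2.89 in EryCP, -1.84, -2.07 and -2.25 in CR Sca1lo, and -0.86, -0.83 and -0.71 in Sca1hi. Clec5a thus fell 5.20-fold in EryCP against Sca1hi (adjusted p = 0.00014) and 2.38-fold in CR Sca1lo against Sca1hi (adjusted p = 0.0078). Clec5a was also 2.18-fold lower in EryCP than in CR Sca1lo (adjusted p = 0.0092; 0.051 without CR Sca1lo array 1) and 1.98-fold lower in CD34- CD103- Epo than in CD34- CD103- cells (adjusted p = 0.0022). Its other probes were not called in these comparisons, and in Ediff, where the brightest probe was not tested, 1 of them rose by 2.22.

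**Figure D3:**
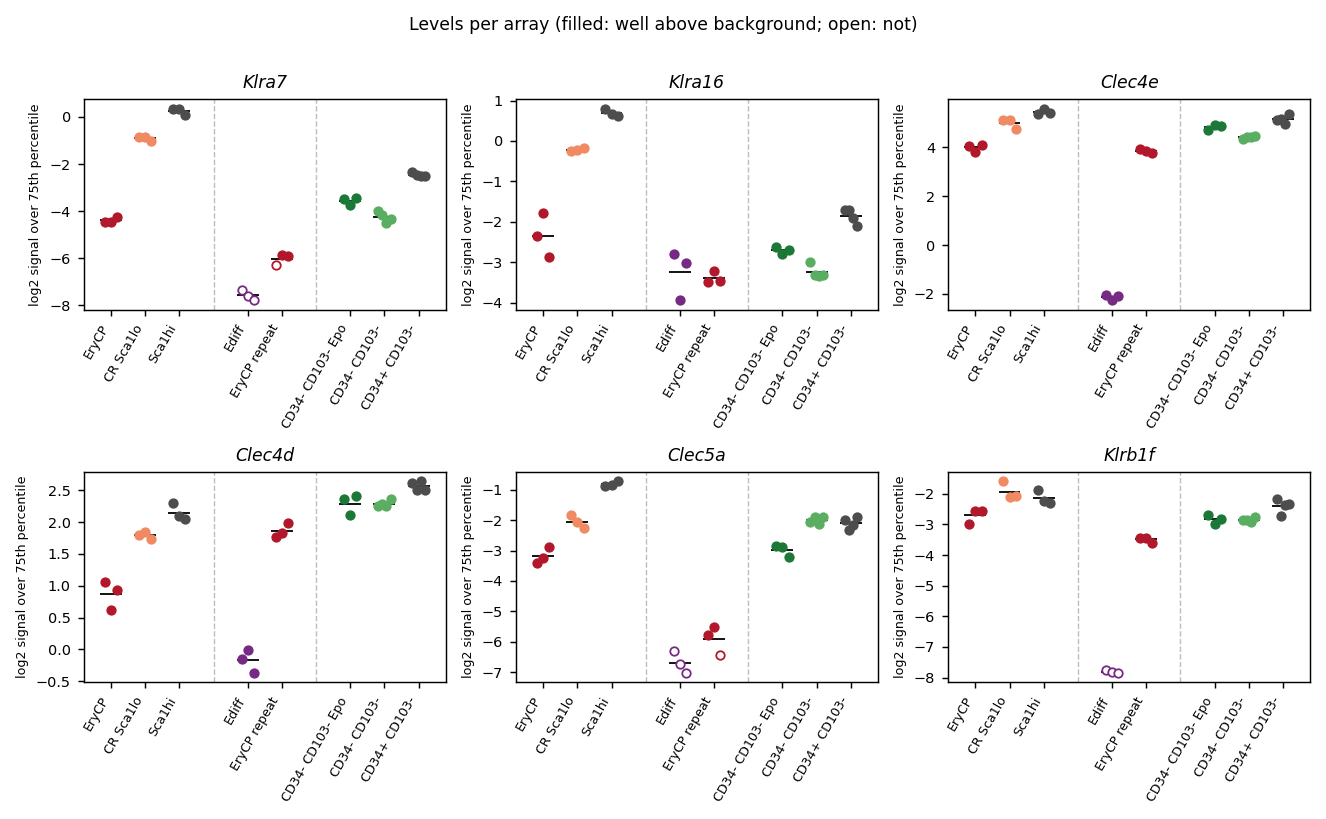
Levels of Ly49 genes, Clec4 lectins, Clec5a and Klrb1f on each array (vertical axis, log2 signal relative to the array's 75th percentile) in the 8 groups, drawn with a bar at each group mean and dashed lines between sets. Open points are not well above background; Klra7 and Clec5a are lowest in EryCP, intermediate in CR Sca1lo and highest in Sca1hi, and Clec4e is near -2 in Ediff and near 4 in EryCP repeat.

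The NKR-P1 receptors and the group of CD94, NKG2 and KLRG receptors (12 genes together) had no call in the first set and none with Epo in the third. Klrb1f, an NKR-P1 receptor gene, was lower in Ediff cells, with -7.75, -7.82 and -7.84, none above background, against -3.45, -3.43 and -3.59 in EryCP repeat. That is at least 5.26-fold lower (adjusted p = 1.9e-06), and it became a difference of 0.18 with normexp. The Klrb1f difference of -0.45 in CD34- CD103- against CD34+ CD103- cells (adjusted p = 0.032) was lost when any of 7 of the 8 arrays was left out (all but CD34+ CD103- array 2; adjusted p 0.051 to 0.090). Klrd1, the CD94 chain that pairs with NKG2 chains, was higher in CD34- CD103- than in CD34+ CD103- cells by 0.39 (adjusted p = 0.033), which was lost without any one array but array 2 of either group (adjusted p 0.061 to 0.093) and turned to -0.087 with normexp. Klrg1, an inhibitory receptor for cadherins, was 2.24-fold lower in Ediff (adjusted p = 0.012), with -6.19, -5.21 and -5.93 in Ediff and -4.49, -4.62 and -4.74 in EryCP repeat, and only 1 of 3 Ediff arrays above background. With normexp the Klrg1 difference turned to 0.44. Klrb1c, which encodes the NK1.1 antigen, was detected on every array and called in none of the 6 comparisons (log2 -0.23 to 0.58).

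Clec2d encodes Clr-b, the ligand of the inhibitory NKR-P1B receptor. The Clec2d levels were -3.14, -2.40 and -2.17 in Ediff and -0.22, 0.77 and -0.41 in EryCP repeat, 6.14-fold lower in Ediff (adjusted p = 0.0024). In the first and the third set its arrays scattered by over 1 log2 unit within CR Sca1lo, Sca1hi and CD34+ CD103- cells and no call was made. Klrb1b, the gene for its receptor, was above background on 1 EryCP array and 3 CD34- CD103- arrays and on no others, and was not tested. Of the Dectin-1 cluster, Clec12a (an inhibitory receptor of myeloid cells) was tested in the first set alone, with differences of -0.24 to 0.17 and no call. Clec1b, the platelet receptor for podoplanin, was above background on 6 of 26 arrays and was not tested.

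Clec11a encodes a secreted growth factor of haematopoietic and skeletal progenitors. Its levels were -2.64, -2.35 and -2.73 in Ediff and 1.97, 1.76 and 1.85 in EryCP repeat, 21.6-fold lower in Ediff (log2 -4.43 ± 0.13, adjusted p = 4.5e-06). In the first set Clec11a was not called, though CR Sca1lo lay above both other fractions without overlap. The log2 difference was 0.71 in CR Sca1lo against Sca1hi (adjusted p = 0.088) and -0.69 in EryCP against CR Sca1lo (adjusted p = 0.087). In the third set CD34- CD103- cells were lower than CD34+ CD103- cells by -0.44 (adjusted p = 0.0043). The 8 members that were higher in Ediff were Clec18a (2.49), Clec14a (1.67), Clec4g (1.52), Klra4 (1.33), Clec4f (1.13), Klra17 (0.83), Klrg2 (0.67) and Clec2e (0.66). Relative to the median of all genes these log2 differences were 2.04, 1.22, 1.06, 0.87, 0.67, 0.38, 0.21 and 0.20, and with spike-in scaling Klra17, Klrg2 and Clec2e turned to -0.11, -0.28 and -0.29. Klra4 and Klra17 were above background on 1 of 3 EryCP repeat arrays each, and Clec4f on 2 of 3. These genes were tested only because every Ediff array detected them, which favours a rise, and their sizes are uncertain. Of all genes 39.6% were called higher in this comparison. Clec14a was the 1 called member whose Ediff levels (-2.87, -3.91 and -2.91) and EryCP repeat levels (-5.79, -3.76 and -5.14) overlapped. Without Ediff array 1 or 3, the calls of Clec14a, Clec2e, Clec4f, Klra17 and Klrg2 were each lost, and without EryCP repeat array 1 or 3 those of all but Clec4f (adjusted p 0.052 to 0.133). Clec16a, which is named for a lectin domain but acts in endosomes and mitophagy, differed by at most 0.06 in the 6 comparisons, except that spike-in scaling made its Ediff difference -0.89.

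Cells after Epo were set against cells before or without it in both the second and the third set, and the difference between these responses was tested in 1 fit over both sets. The cells, their title label (EML or EMLe2), their selection and the array set differed as well, and these cannot be told apart from Epo itself. Of 41 members tested, 16 were called (7 higher, 9 lower), 39.0% against 37.8% of all genes (23.5% higher, 14.3% lower), so this share was near that of all genes, whose median difference was 0.37. Clec10a fell by 4.22 with Epo in CD34- CD103- cells and changed by -0.47 in Ediff against EryCP repeat, a difference of 3.75 ± 0.26 (adjusted p = 5.1e-07). Clec4e ran the other way, at 0.42 in CD34- CD103- Epo and -5.97 in Ediff, a difference of -6.40 ± 0.12 (adjusted p = 5.1e-11). The Pirb difference was -1.80 and the Lilrb4a difference -3.36, both from a larger fall in Ediff, but with normexp the Lilrb4a difference turned to 0.30 (adjusted p = 0.964). Lilra6 had a difference of 1.28, from a larger fall in CD34- CD103- Epo. Its second probe went the other way, with -1.40 in Ediff and -0.57, not called, in CD34- CD103- Epo. The difference of responses was not tested for that probe. Klra7, Klrb1f, Pira2, Clec5a and Klrc3 were above background on none of the 3 Ediff arrays. Their Ediff responses are therefore bounds at most, and the size of the difference is not given for them here.

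**Figure D4:**
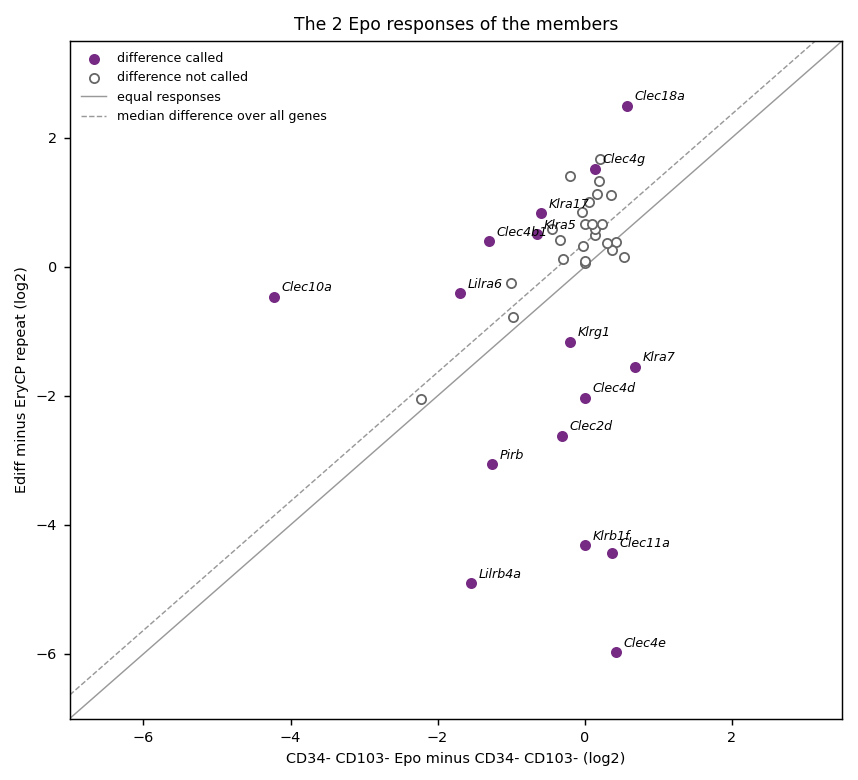
Each point is a member, with its log2 difference in CD34- CD103- Epo against CD34- CD103- on the horizontal axis and in Ediff against EryCP repeat on the vertical axis; the solid line marks equal responses and the dashed line the median difference over all genes. Filled points are the 16 members whose difference was called, with Clec10a far to the left and Clec4e at the bottom. Klra7, Klrb1f and the open point of Pira2 near -2 on both axes are drawn at values not above background in Ediff. The same holds for the open points of Clec5a and Klrc3. Klra7, Clec5a and Klrc3 were not tested within the Ediff comparison.

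The partners of these receptors were taken from lists. Of 21 tested ITAM adaptor and signalling genes, 17 fell and 1 rose in Ediff against EryCP repeat (median -1.77). Of all genes 17% were lower and 39.6% higher there. Tyrobp, the DAP12 adaptor, was -1.88 in Ediff and 5.08 in EryCP repeat on average (log2 -6.96 ± 0.10, adjusted p = 1.4e-06). Fcer1g, the Fc receptor gamma chain that carries PIR-A, fell by 3.65 ± 0.10 and Hcst, the DAP10 adaptor, fell by 3.15 ± 0.10. The kinase Syk fell by 3.22 and the scaffold Lat by 5.13. Of the 3 ITIM phosphatases, Ptpn6 (SHP-1) and Inpp5d (SHIP-1) fell by 1.28 and 1.54 and Ptpn11 (SHP-2) rose by 0.41. In CD34- CD103- Epo against CD34- CD103- cells 3 of the 21 signalling genes were called (2 higher and 1 lower, median -0.01), against 2.53% of all genes. Tyrobp, Fcer1g and Hcst differed by 0.09, 0.09 and -0.03 there, none called. EryCP against CR Sca1lo called 2 higher and 4 lower, with Lcp2 (the adaptor SLP-76) higher by 2.05 and Syk lower by -1.56 on the log2 scale. CR Sca1lo against Sca1hi called 1 higher and 3 lower.

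**Figure D5:**
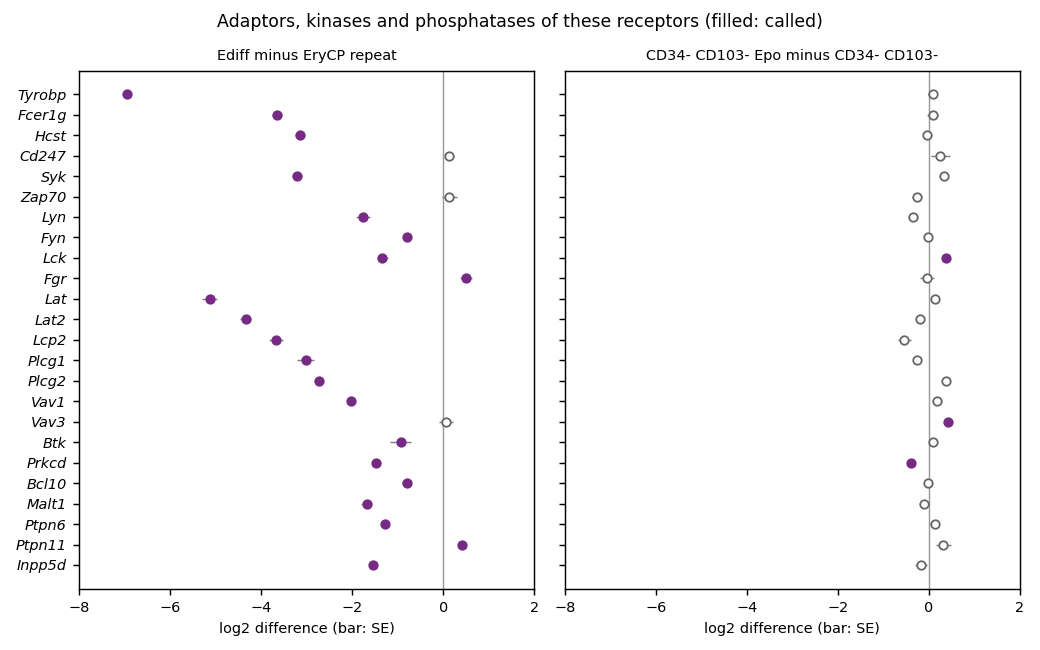
Log2 differences with standard errors (horizontal axis) of receptor adaptors, kinases, scaffolds and phosphatases in Ediff against EryCP repeat (left) and in CD34- CD103- Epo against CD34- CD103- (right); filled points were called. Tyrobp, Lat and Lat2 lie below -4 on the left, and all genes lie between -1 and 1 on the right.

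Other immunoglobulin-like paired receptors split between these patterns. Pilra, an inhibitory receptor, and Pilrb1, its activating relative, were higher in EryCP than in CR Sca1lo by 7.04 and 5.81 and lower in Ediff than in EryCP repeat by -7.22 and -5.98 on the log2 scale. Pilra was also lower in CD34- CD103- Epo than in CD34- CD103- cells (log2 -2.57) and higher in CD34- CD103- than in CD34+ CD103- cells (log2 5.15). Cd300lf, an inhibitory receptor, was lowest in CR Sca1lo like the PIR genes (log2 3.83 in EryCP against CR Sca1lo, -4.19 in CR Sca1lo against Sca1hi). The whole list had 5 higher and 3 lower of 31 in EryCP against CR Sca1lo and 9 higher and 12 lower of 29 in Ediff against EryCP repeat. Among 13 class I and NKG2D ligand genes, B2m (the class I light chain) rose by 1.14 in Ediff while 6 fell, among them H2-M3 (-3.41) and Ulbp1 (-1.58), an NKG2D ligand. Of 13 other lectin-like receptors, 5 rose and 3 fell in Ediff (median 0.436), where 39.6% of all genes were higher and 17% lower. Among those that fell were Cd69, an activation antigen, at -6.16 and Cd93 at -5.21 on the log2 scale.

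Markers of other cells moved beside some of these results, and in such bulk samples fewer cells of a type and less RNA per cell cannot be told apart. The mast cell and basophil markers had 8 of 10 higher in EryCP against CR Sca1lo (median log2 4.07), 9 of 10 lower in Ediff against EryCP repeat (median -5.74), 7 of 10 lower in CD34- CD103- Epo against CD34- CD103- (median -1.40) and 8 of 10 higher in CD34- CD103- against CD34+ CD103- (median 4.08). In EryCP against Sca1hi 8 of 10 were also higher (median 3.77), whereas Pirb, Pira2, Lilra6 and Lilrb4a were lower there. CR Sca1lo against Sca1hi had 1 higher and 2 lower (median -0.176), whereas Clec10a and those PIR and LILR genes were all lower. In Ediff, where 9 of 10 markers fell, Clec10a was not called. The markers' summed log2 level was 9.44 to 9.95 in EryCP, 7.39 to 7.90 in CR Sca1lo and 7.71 to 8.31 in Sca1hi. It was 3.63 to 3.93 in Ediff and 9.70 to 9.91 in EryCP repeat. In the third set it was 8.60 to 8.62 with Epo, 9.70 to 9.78 in CD34- CD103- and 8.01 to 8.22 in CD34+ CD103- cells, and all 10 markers were detected on every array of every group except Ediff (9). Their part in the Clec10a and PIR results was not tested.

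The neutrophil markers (9 genes) moved beside Klra7, Klra16, Clec4e and Clec4d only in part. Their summed log2 level was 5.78 to 6.50 in EryCP, 8.23 to 8.79 in CR Sca1lo and 7.83 to 8.29 in Sca1hi, and it was -0.61 to -0.19 in Ediff and 5.67 to 5.91 in EryCP repeat. It was 7.94 to 8.29 in CD34- CD103- Epo, 7.51 to 7.73 in CD34- CD103- and 8.51 to 8.84 in CD34+ CD103- cells. In the first set the sum ranged highest in CR Sca1lo, whereas Klra7, Klra16, Clec4e and Clec4d were all highest in Sca1hi. In Ediff against EryCP repeat Klra16 differed by 0.14 and was not called, and Klra7 was not tested. The members of the list did not move one way: in EryCP against CR Sca1lo 2 rose and 2 fell of 8 tested, in Ediff 1 rose and 3 fell of 7, and in CD34- CD103- against CD34+ CD103- cells 3 rose and 2 fell of 9. Mpo, the myeloperoxidase of granule-forming myeloid cells, differed by -2.60, -7.35 and -1.28 in these comparisons, and S100a9, a calcium-binding protein of neutrophils, by 4.49, -3.51 and 4.71. Csf3r, the granulocyte colony-stimulating factor receptor, was above background on none of the Ediff arrays. The part of these markers' cells in the Ly49 and Clec4 results was not tested.

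The natural killer markers summed to 4.74 to 5.35 in EryCP, 5.56 to 6.05 in CR Sca1lo and 5.72 to 6.20 in Sca1hi, and to -0.35 to 0.08 in Ediff and 5.15 to 5.17 in EryCP repeat. They summed to 5.94 to 6.18 in CD34- CD103- Epo, 5.65 to 5.89 in CD34- CD103- and 6.19 to 6.47 in CD34+ CD103- cells. In CD34- CD103- against CD34+ CD103- cells 3 of 7 tested natural killer markers were lower and none higher, beside the 3 of 7 Ly49 genes lower there. Of all genes 6.76% were lower and 5.65% higher in that comparison. Nkg7 and Cd244a of this list fell in Ediff against EryCP repeat, but the list did not move one way. Of 6 natural killer markers tested there, 2 were lower and 1 was higher (median log2 difference 0.244). Ncr1, a marker of this list, was above background on no array of Sca1hi, EryCP repeat, CD34- CD103- Epo or CD34+ CD103-. In these groups, in that order, 6, 5, 6 and 7 of the 9 listed natural killer markers were detected on every array. Each other group had Ncr1 above background on at least 1 array. Of 8 tested macrophage and monocyte markers 4 rose and 1 fell in Ediff against EryCP repeat, where 39.6% of all genes were higher and 17% lower. Csf1r, the macrophage colony-stimulating factor receptor, was higher by 3.14 and Lyz2, a lysozyme, lower by -4.10. In the third set 2 of 8 of these markers were lower and none higher with Epo (median 0.001). In CD34- CD103- against CD34+ CD103- cells 1 of 8 was higher and 1 lower (median 0.13). Lyz2 was lower in CD34- CD103- Epo than in CD34- CD103- cells (log2 -2.47) and higher in CD34- CD103- than in CD34+ CD103- cells (log2 1.49). The erythroid markers all rose in Ediff (9 of 9, median 5.14). What part these markers' cells had in the members' values was not tested.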

How the data were processed

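RNA of 26 EML samples was labelled with Cy3 and hybridised to 1-colour Agilent mouse arrays. Per the file headers the deposited intensity values are background-subtracted and detrended spot signals of Agilent Feature Extraction (version 10.7.1.1 in the CD34 and CD103 set, 10.1.1.1 elsewhere), with median and background intensity beside them. The deposited series table holds log2 values that the authors made; its normalization is not given in the sources used here, and it served as an alternative. The members and lists were chosen with earlier results of these data known.

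Outlier spots (48 to 446 per array of 43379) were left out, spots of a probe averaged, and log2 of the processed signal was centred on each array's 75th percentile over non-control spots. Probes were named through their accession and RefSeq (27071 of 41174 probes; the other 14103 stayed unnamed and were kept in the fits). Each set was fitted apart with limma 3.58.1 in R 4.3.3 (lmFit, eBayes), with Benjamini-Hochberg adjustment over all genes tested; the difference of Epo responses came from 1 fit over the second and the third set. The script was tested on simulated data. Members named are a fixed set of 16 genes where tested, plus every called member up to 10 rises and 10 falls per comparison; others are given by counts and ranges. No pair of replicates was identical (correlations 0.968 to 0.993). The number of arrays limits the precision.

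Alternatives were the slide as a block or within-slide values, normexp (offset 50), quantile and spike-in scaling, other filters, trend and robust moderation, 1 fit over all arrays, the series table, other probes and leaving out each array. The files used hold no mean signal column, so normexp was run on the median signal. The label of a slide comes from the array barcodes, and all arrays of a set share a scan day.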

Additional observations from a re-analysis of the deposited data

Results flagged for a closer look

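Among the 114 pairs of a member and a group of 4 arrays, 6 had 1 array that stood apart from the other 3, and chance flags about 1 in 20. In CD34- CD103- cells, Klra16 on array 1 was -2.99 against -3.34 to -3.31. The other 5 were in CD34+ CD103- cells. There Clec12b was -2.04 on array 2 against -5.98 to -5.68, and all 4 arrays were above background. Klrc1 was -2.38 on array 1 against -8.03 to -7.34, with 1 array of the group above background. Klre1 was -7.90 against -6.46 to -6.43, with 2 arrays above background. Klra10 (-8.60 against -7.15 to -6.99) and Klrb1b (-7.56 against -9.00 to -8.79) were above background on no array of the group.

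The response to Epo differed between the second set (Ediff minus EryCP repeat) and the third set (CD34- CD103- Epo minus CD34- CD103-) for 16 members by the limma test of the difference itself, 39.0% of those tested, against 37.8% of all genes. The members with the lower value in Ediff were Clec4e (-6.40), Clec11a (-4.81), Lilrb4a (-3.36), Clec2d (-2.31), Clec4d (-2.03), Pirb (-1.80) and Klrg1 (-0.96). The fit also called Klrb1f (-4.32) and Klra7 (-2.23), but both were above background on none of the Ediff arrays, so these are no sizes. For Klrb1f the fall in Ediff is at least 5.26-fold, and for Klra7 the bound shows no fall. Those with the higher value were Klra5 (1.16), Lilra6 (1.28), Clec4g (1.38), Klra17 (1.42), Clec4b1 (1.69), Clec18a (1.92) and Clec10a (3.75). The second Lilra6 probe went the other way, with -1.40 in Ediff and -0.57, not called, in CD34- CD103- Epo. Klrg1 was above background on 1 of 3 Ediff arrays, and Klra17 on 1 of 3 arrays of EryCP repeat and 1 of 3 of CD34- CD103- Epo. Adjusted p ranged between 5.1e-11 for Clec4e and 0.049 for Klra5. The calls of Klra5, Klra17 and Klrg1 were lost when any of 8, 8 and 9 of the 13 arrays was left out.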

How the results depend on the processing

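Of 85 calls of members over all comparisons, 61 stayed called whichever array was left out. None of 180 within-slide values changed sign, but where groups do not overlap that sign is fixed in advance. Among the calls of the 6 comparisons, only that of Clec14a in Ediff had overlapping groups, so these values are no further support. The calls that did not hold were 3 with the slide as a block, 4 with trend and robust moderation, 4 with all 26 arrays in 1 fit, 7 with quantile normalization, 7 with no filter on dim probes and 13 in the deposited series table, all without a change of direction. The fit of all 26 arrays, quantile normalization and the fit with no filter did not cover the difference of Epo responses. They kept 65, 62 and 62 calls. Normexp kept 26 calls, lost 50 and turned 9, and spike-in scaling kept 60, lost 22 and turned 3. The cause was not tested. Normexp called 2, 73, 98 and 239 of all genes in CR Sca1lo against Sca1hi, EryCP against CR Sca1lo, EryCP against Sca1hi and Ediff against EryCP repeat. The number of members called in CR Sca1lo against Sca1hi was 8 in the fit reported, 16 with the slide as a block, 0 with normexp, 5 with spike-in scaling, 14 with all 26 arrays and 15 in the series table. In EryCP against CR Sca1lo it was 11 and 1 with normexp, in EryCP against Sca1hi 10, 2 with normexp and 6 with spike-in scaling, in Ediff against EryCP repeat 18 and 2 with normexp, in CD34- CD103- Epo against CD34- CD103- 9 and 5 with normexp, and for the difference of Epo responses 16 and 6 with normexp. Leaving out each array gave 7 in CR Sca1lo against Sca1hi, 6 to 10 in EryCP against CR Sca1lo, 6 to 9 in EryCP against Sca1hi, 12 to 26 in Ediff, 7 to 10 with Epo, 10 to 13 in CD34- CD103- against CD34+ CD103-, and 13 to 24 for the difference of Epo responses. With normexp Pira2 turned to -0.74 in EryCP against CR Sca1lo and to 0.49 in Ediff, where Klrb1f turned to 0.18 and Klrg1 to 0.44, and Klrd1 turned to -0.087 in CD34- CD103- against CD34+ CD103- cells. In the difference of Epo responses normexp turned Klra7 to 0.069, Klrb1f to 0.03, Klrg1 to 0.23 and Lilrb4a to 0.30. Spike-in scaling moved the median of all genes by -0.94 in Ediff, where it turned Clec2e to -0.29, Klra17 to -0.11, Klrg2 to -0.28 and Clec16a to -0.89. It moved that median by -0.73 in the difference of Epo responses, where it turned Clec16a to -0.68, and by -0.21 in CD34- CD103- against CD34+ CD103- and -0.22 with Epo. By replicate number no paired analysis was possible because the titles number the arrays through each series of groups, so the slide was the block instead. Pira2, Klrb1f, Klra7 and Clec5a have only a bound in some groups, and Klrc3 was above background on no array of Ediff or EryCP repeat. Klrg1, Klra4, Klra17 and Clec4f were above background on only some arrays of a group.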
